A study of Mus musculus with 18 samples.

Results

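Genes that mark stem cells of the intestinal crypt or that respond to Wnt signalling were followed in sorted mouse colon epithelial cells (CECs): Lgr5, Ascl2, Olfm4, Smoc2, Lrig1, Axin2, Rnf43, Cd44, Ephb2 and Sox9. Every probe of the array table whose gene symbol is one of these 10 was taken, which gave 24 of 45281 probes, and 22 of the 24 passed the filter on dim probes and were tested. The measurements came from Illumina MouseWG-6 BeadChips, on which a transcript is read by beads carrying probes 50 bases long. RNA was taken from EpCAM+ CECs sorted as negative for leukocyte markers. The 4 groups were WT mice without treatment (Naive_WT), Mbd2-/- mice without treatment (Naive_KO), WT mice given 2% dextran sulphate sodium (DSS) in drinking water for 6 days (DSS_WT), and Mbd2-/- mice given the same (DSS_KO). Mbd2 is a protein that binds methylated CpG, and the Mbd2-/- mice lacked it in all cells and not in the epithelium alone. The study's methods give a C57BL/6 background and ages of 8 to 22 weeks for its mice, with littermate WT controls, and the series' description gives 1 to 5 mice per replicate. Each group had 4 samples, and the p-values measure only the spread between these samples.

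The colon epithelium is renewed by stem cells at the crypt base, and Wnt ligands from cells around the crypt keep those cells dividing. Wnt binding to frizzled receptors and Lrp co-receptors stabilises beta-catenin, which enters the nucleus and switches on target genes with Tcf and Lef factors. Axin2 and Rnf43 are targets that dampen the pathway in turn, Lgr5 is a target that amplifies it as a receptor for R-spondins, and Ascl2 is a target that encodes a transcription factor of the crypt base. DSS is a polymer that injures the colonic epithelium and brings on colitis.

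A selection of the probes is shown here, since the genes with several probes gave readings that differed between probes. Lrig1 ILMN_2640862, Cd44 ILMN_3114585 and Cd44 ILMN_2474229 also passed in a comparison, and their sequences are not given. The first probe is the only one for Lgr5, the next pair reads Ascl2, and the last pair reads Cd44 in the stretch nearer the start of its transcript. No base is singled out, so all letters are in lower case, 5′ to 3′.
Lgr5 ILMN_2650008: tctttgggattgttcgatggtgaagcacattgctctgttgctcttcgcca
Ascl2 ILMN_2750349: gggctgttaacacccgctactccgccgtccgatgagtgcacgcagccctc
Ascl2 ILMN_2919900: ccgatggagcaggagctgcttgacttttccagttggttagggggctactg
Cd44 ILMN_2640330: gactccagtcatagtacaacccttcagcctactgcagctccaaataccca
Cd44 ILMN_2697830: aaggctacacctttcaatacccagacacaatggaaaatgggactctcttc
The table places the Lgr5 probe at chr10:114889470-114889519 on the minus strand and at bases 2561 to 2610 of its transcript. ILMN_2919900 for Ascl2 lies at chr7:150153811-150153860 on the minus strand, bases 1001 to 1050 of the transcript, and ILMN_2750349 lies at bases 567 to 616 of an Ascl2 transcript, with no genome position given. The Cd44 probes lie on the minus strand of chromosome 2, ILMN_2640330 at chr2:102674437-102674486 (bases 1244 to 1293) and ILMN_2697830 at chr2:102671577-102671626 (bases 1497 to 1546). Olfm4 (ILMN_3161834), Smoc2 (ILMN_2554610), Lrig1 (ILMN_2640862), Axin2 (ILMN_2896314) and Rnf43 (ILMN_2979097) were likewise read by 1 probe each. The genome build of the positions is not stated in the table, nor are the exon or UTR. No probe of the 10 genes shares a run of 20 bases with any other probe on the array.

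Between 18851 and 20618 probes were detected per array, and each value of a member probe rests on 15 to 69 beads. The background, read as the mean of the negative controls, was 113.3 to 133.8 on DSS arrays 1 to 8. It was 100.5 to 111.4 on naive arrays 9 to 16, and 113.4 and 103.4 on the DSS repeat arrays 4R and 5R. The epithelial markers Epcam, Vil1, Cdh1 and Krt8 were detected on all 18 arrays. The leukocyte marker Ptprc was detected on 3 of 18 arrays, whereas the fibroblast marker Pdgfra and the endothelial marker Pecam1 were detected on all 18. All 18 arrays detected 7 of 9 tested leukocyte genes and 6 of 9 myeloid genes. They also detected 12 of 12 fibroblast, 7 of 8 smooth muscle and 9 of 10 endothelial genes. The Mbd2 probe was detected on 0 of 18, so that the array gives no check of the genotype. Each of the 10 genes but Olfm4 had a probe detected on 17 or 18 of the 18 arrays, and Olfm4 was detected on 5. The repeat arrays 4R and 5R were averaged with 4 and 5. For the 22 tested probes of the 10 genes, their values differed from those of their namesakes by a median of 0.12 and 0.15 on the log2 scale. The largest gap among these 22 probes was 0.87, for Lgr5 between 5 and 5R.

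**Figure D1:**
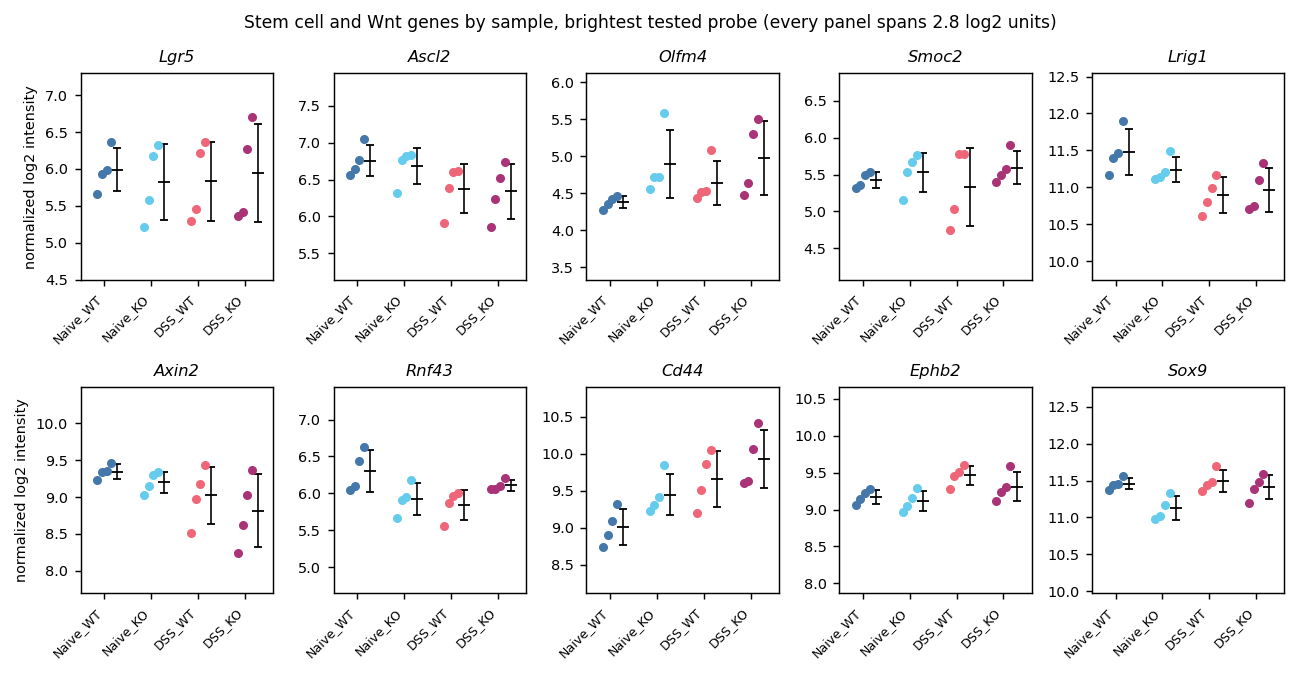
Normalized log2 intensity (y axis) of the 10 genes in the 4 groups (x axis), each read by its tested probe with the highest mean; points are samples in order of their value, bars are the mean ± SD of 4 samples, and the axes have the same length but different starts. Lgr5 means lie between 5.82 and 5.99 in all groups, Cd44 means run from 9.01 in Naive_WT to 9.93 in DSS_KO, and the Lrig1 mean is 11.48 in Naive_WT and 10.90 in DSS_WT.

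In WT CECs with DSS, 3 of 8 tested Cd44 probes rose and the Lrig1 probe fell, and no other of the 10 genes passed the test. By the probe with the highest mean, 1 of the 10 genes passed, Lrig1. Of the 22 tested probes, 4 passed the test (limma, adjusted p under 0.05), against 10.5% of all tested probes. Higher with DSS were 3 of them, where the background share was 5.71%, and all 3 belonged to Cd44, a cell surface receptor for hyaluronan. Lower was 1, against 4.75% of all tested probes, and it belonged to Lrig1, a membrane protein that restrains ErbB receptors and marks stem cells. None met the study's stricter call of an adjusted p under 0.01 with an absolute log2 fold change of at least 1, which 1.74% of all tested probes did. The median log2 fold change was -0.03 over the 22 probes and -0.01 over all tested probes.

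The Cd44 probe ILMN_2697830 read 5.25, 5.30, 5.40 and 5.32 in Naive_WT and 6.32, 6.20, 6.36 and 6.29 in DSS_WT. Both groups were tight and did not overlap, and the difference was 0.98 ± 0.20 (SE) on the log2 scale with a limma adjusted p of 0.00538. Cd44 ILMN_2640330 read 6.23, 5.77, 6.12 and 5.63 in Naive_WT and 6.70, 6.61, 7.09 and 6.98 in DSS_WT. Here too no sample overlapped, with a log2 difference of 0.91 ± 0.19 and an adjusted p of 0.00683. Cd44 ILMN_3114585, near the end of the transcript, read 8.51, 8.49, 8.81 and 8.46 in Naive_WT and 9.16, 9.42, 9.64 and 9.82 in DSS_WT. Its groups also stood apart, by 0.94 ± 0.23 (adjusted p = 0.0150). The probe that stands for the gene by its highest mean, ILMN_1223697, differed by 0.65 ± 0.21 with an adjusted p of 0.0617 and did not pass, but it did without DSS_WT replicate 2 (0.80, adjusted p = 0.0302), DSS_KO replicate 6 (0.0479) or Naive_KO replicate 15 (0.0484), and under 3 of 8 other settings. Cd44 ILMN_2754990 (0.72, adjusted p = 0.0906) likewise passed only without Naive_WT replicate 11 (0.93, adjusted p = 0.0401) and under 2 of 8 other settings. The 3 probes that passed did so under all 8 other settings, although without background correction ILMN_2697830 differed by 0.36 and ILMN_2640330 by 0.41, and the call for ILMN_3114585 was lost without DSS_WT replicate 4 (adjusted p = 0.0558). As in any bulk sample, a change in the number of cells of a type and a change in RNA per cell cannot be told apart.

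Lrig1 read 11.16, 11.46, 11.39 and 11.90 in Naive_WT and 10.80, 10.62, 11.00 and 11.17 in DSS_WT. The highest DSS sample lay just above the lowest naive sample, so the groups overlapped by a single pair. Lrig1 fell by 0.58 on the log2 scale (SE 0.17, adjusted p = 0.0428). This call was close to its threshold, as 4 of 8 other settings lost it, and so did leaving out any of DSS_WT replicates 1, 2 or 3, DSS_KO replicate 8, Naive_WT replicates 10, 11 or 12 and Naive_KO replicates 13 or 14 (adjusted p from 0.0287 to 0.130 over all 16 such fits). With arrays scaled to a common median the difference was -0.20 (adjusted p = 0.514), in a fit where the median of all tested probes was 0.24, and relative to that median it was -0.44.

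The other stem cell genes did not pass in WT CECs. Lgr5 read 5.67, 5.98, 5.94 and 6.37 in Naive_WT and 5.45, 5.29, 6.22 and 6.36 in DSS_WT. The samples of both groups were interleaved, and the difference was -0.16 with a 95% confidence interval of -0.84 to 0.52, an interval wide enough to hold changes in either direction. The Ascl2 probe ILMN_2750349 differed by -0.38 (-0.79 to 0.04, adjusted p = 0.232) and ILMN_2919900 by -0.26 (-0.60 to 0.07). Smoc2, a secreted calcium-binding matrix protein found in crypt base cells, differed by -0.09 (-0.53 to 0.34). The signs for Lgr5 and Smoc2 turned with array weights. Olfm4, a secreted glycoprotein of crypt base cells, was detected on 0 of 4 Naive_WT arrays and 1 of 5 DSS_WT arrays, so its difference of 0.26 (-0.24 to 0.77) compares values near background.

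Among the Wnt feedback and target genes, Rnf43, a ubiquitin ligase that removes frizzled receptors from the cell surface, came closest to the threshold among those that did not pass. It read 6.04, 6.44, 6.10 and 6.63 in Naive_WT and 5.86, 5.56, 5.96 and 6.01 in DSS_WT. Every DSS sample lay below every naive sample, by 0.46 on average (-0.77 to -0.15), but the adjusted p was 0.0578, and it passed without Naive_WT replicate 9 (-0.54, adjusted p = 0.0390) and with all 18 arrays as replicates (-0.42, adjusted p = 0.0442), a fit that counts the repeat arrays as if they were separate samples. In all, 5 of the 22 probes had groups that did not overlap, against 17.0% of all tested probes, namely Rnf43, the 3 Cd44 probes and Ephb2 ILMN_2622255. Ephb2, the receptor whose repulsion by ephrin-B keeps crypt cells in place, differed by 0.29 (0.04 to 0.54, adjusted p = 0.131) on that probe and by -0.12, -0.11 and -0.10 on its 3 others, ILMN_2688515, ILMN_1240431 and ILMN_1220911. With median scaling ILMN_2622255 passed (0.69, adjusted p = 0.0115), in a fit where the median of all tested probes was 0.24 and 24% of them passed. Axin2, the scaffold of the beta-catenin destruction complex, differed by -0.32 (-0.77 to 0.12). Sox9, a transcription factor of crypt progenitors, differed by 0.03 (-0.21 to 0.28) on ILMN_2778151 and by -0.23 (-0.54 to 0.08) on ILMN_3007428.

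**Figure D2:**
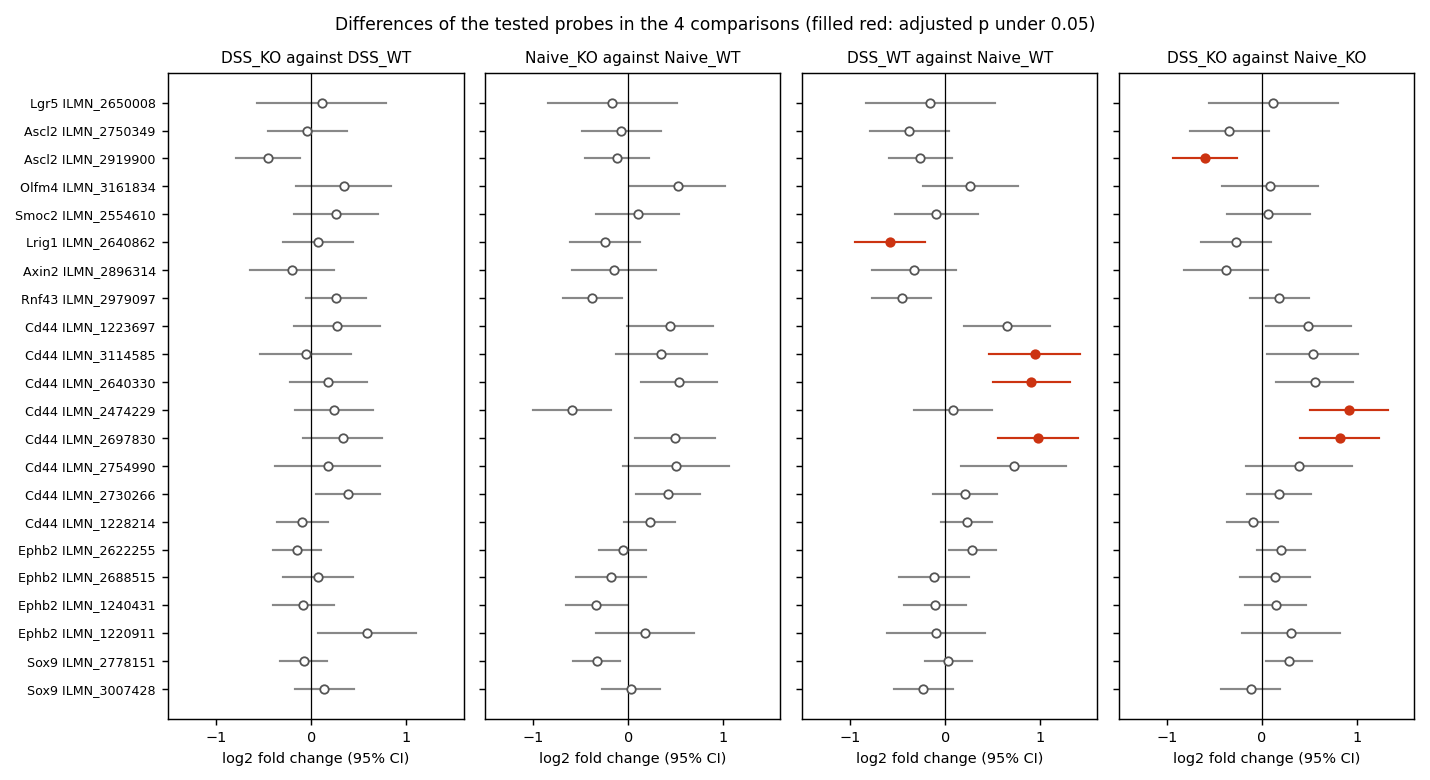
Log2 fold change (x axis) with its 95% confidence interval for each of the 22 tested probes (rows) in the 4 comparisons (panels); filled red points had an adjusted p under 0.05. Red points appear only with DSS, 4 in WT and 3 in Mbd2-/- CECs, and none in the 2 comparisons of genotype.

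In Mbd2-/- CECs with DSS, 2 of 8 tested Cd44 probes rose and 1 of the 2 tested Ascl2 probes fell. None of the 10 genes passed by its probe with the highest mean. For Cd44 that probe, ILMN_1223697, differed by 0.49 ± 0.21 with a limma adjusted p of 0.168. Of the 22 probes, 3 passed, against 9.42% of all tested probes. Higher were 2 of them (background 4.90%), both for Cd44, and 1 was lower (background 4.52%), for Ascl2. None met the stricter call, which 1.72% of all tested probes met, and 3 probes had groups that did not overlap, against 15.9% of all tested probes. They were the same 3 that passed.

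The Cd44 probe ILMN_2474229 read 5.79, 6.02, 6.05 and 6.13 in Naive_KO and 6.68, 7.28, 6.50 and 7.18 in DSS_KO. The groups were apart in every sample, by 0.91 ± 0.19 (adjusted p = 0.00814), and by 0.44 without background correction. Cd44 ILMN_2697830, the probe that also passed in WT CECs, read 5.92, 5.50, 5.91 and 5.91 in Naive_KO and 6.49, 7.40, 6.06 and 6.54 in DSS_KO. The lowest DSS sample lay above the highest naive one, the difference was 0.82 ± 0.20 (adjusted p = 0.0161), and the call was lost without Naive_KO replicate 14 (0.71, adjusted p = 0.0556) and in the fit to these 2 groups alone (adjusted p = 0.0695). Without background correction it differed by 0.37. The other 6 tested Cd44 probes differed by -0.10 to 0.55 and did not pass, though ILMN_2640330 did without DSS_KO replicate 7 (0.70, adjusted p = 0.0292). With array weights ILMN_2640330 (adjusted p = 0.0194) and ILMN_1223697 (0.68, adjusted p = 0.0213) passed, where 15.9% of all tested probes did.

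Ascl2 ILMN_2919900 read 6.21, 6.43, 6.68 and 6.59 in Naive_KO and 5.49, 5.93, 6.00 and 6.10 in DSS_KO. All DSS samples were below all naive samples, and the value fell by 0.60 on the log2 scale (SE 0.16, adjusted p = 0.0257), or by 0.25 without background correction. On ILMN_2750349, the Ascl2 probe with the higher mean, the naive samples read 6.83, 6.77, 6.31 and 6.82 and the DSS samples 5.86, 6.73, 6.52 and 6.24. These overlapped, and the difference was -0.35 (-0.76 to 0.07, adjusted p = 0.293), so the 2 probes had the same sign but only 1 passed. The call on ILMN_2919900 was lost without DSS_KO replicate 5 or Naive_KO replicate 14, 15 or 16 (adjusted p from 0.0523 to 0.0856) and with median scaling (-0.34, adjusted p = 0.288), where the median of all tested probes was 0.23 and the value relative to it was -0.57. The third Ascl2 probe, ILMN_2515236, was detected on 0 of 18 arrays and was not tested.

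Lrig1, which fell in WT CECs, differed by -0.27 (-0.64 to 0.10, adjusted p = 0.362) in Mbd2-/- CECs. Lgr5 read 5.57, 5.22, 6.33 and 6.17 in Naive_KO and 5.41, 6.71, 5.36 and 6.28 in DSS_KO. The difference was 0.12 (-0.56 to 0.80), with both groups spread over more than a log2 unit. Axin2 differed by -0.38 (-0.82 to 0.06, adjusted p = 0.274), Rnf43 by 0.18 (-0.13 to 0.49), and Ephb2 ILMN_2622255 by 0.20 (-0.05 to 0.45). Sox9 ILMN_2778151 was higher by 0.28 (0.04 to 0.53) but did not pass (adjusted p = 0.141). With median scaling this Sox9 probe, that Ephb2 probe and 3 further Cd44 probes passed, in a fit where the median of all tested probes was 0.23 and 20.8% of them passed.

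Loss of Mbd2 was compared with DSS and without it, and no probe of the 10 genes passed in either comparison. With DSS, 0 of 22 probes passed against 5.63% of all tested probes, and 0 met the stricter call against 0.862%. At an unadjusted p under 0.05 there were 3 of 22, against 22.2% of all tested probes, and 2 probes, for Rnf43 and Cd44, had groups that did not overlap, against 14.7%. The smallest adjusted p was 0.101, for Ascl2 ILMN_2919900 at -0.45 (-0.79 to -0.12). Its values were 6.30, 6.06, 6.67 and 6.31 in DSS_WT beside the DSS_KO values above, and the highest DSS_KO sample overlapped the lowest DSS_WT sample. Ephb2 ILMN_1220911 differed by 0.59 (0.07 to 1.101, adjusted p = 0.165) and passed only without DSS_WT replicate 1 (0.84, adjusted p = 0.0325). Lgr5 differed by 0.11 (-0.57 to 0.79), Lrig1 by 0.07 (-0.30 to 0.44), Axin2 by -0.20 (-0.65 to 0.24) and Cd44 ILMN_1223697 by 0.27 (-0.18 to 0.72). The signs for Lgr5 and Lrig1 turned when all 18 arrays were taken as replicates. In that fit, which counts the repeat arrays as if they were separate samples, Ascl2 ILMN_2919900 passed (-0.53, adjusted p = 0.0269), as did 12.8% of all tested probes.

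Without DSS, 0 of 22 probes passed against 5.19% of all tested probes, and 0 met the stricter call against 0.656%. Of the 22, 8 had an unadjusted p under 0.05, where 22.8% of all tested probes did, and 5 had groups that did not overlap, where 12.3% did. These 5 were Olfm4, Sox9 ILMN_2778151 and 3 Cd44 probes. The smallest adjusted p was 0.0840, for Cd44 ILMN_2474229, which read 6.47, 6.37, 6.88 and 6.64 in Naive_WT beside the Naive_KO values given above. The difference was -0.59 (-1.001 to -0.18), while the other 7 tested Cd44 probes all had positive differences, of 0.23 to 0.53. ILMN_2697830 passed without DSS_KO replicate 6 (0.49, adjusted p = 0.0388), and ILMN_2730266 without Naive_WT replicate 9 (0.56, adjusted p = 0.0384). Sox9 ILMN_2778151 read 11.37, 11.46, 11.56 and 11.44 in Naive_WT and 10.98, 11.33, 11.17 and 11.02 in Naive_KO. Its difference was -0.33 (-0.58 to -0.08, adjusted p = 0.105), whereas Sox9 ILMN_3007428 gave 0.03 (-0.28 to 0.34). Olfm4 was detected on 0 of 4 Naive_WT and 1 of 4 Naive_KO arrays, and its difference of 0.52 (0.02 to 1.02, adjusted p = 0.203) again compares values near background.

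The test of whether the effect of Mbd2 loss differed with and without DSS was passed by none of these genes. No tested probe of the array passed it, so the share of all tested probes was 0% at either call. At an unadjusted p under 0.05 there were 2 of the 22 probes, against 10.7% of all tested probes. They were Rnf43, with an interaction of 0.64 (0.20 to 1.08) and an adjusted p of 0.270, and Cd44 ILMN_2474229, with 0.83 (0.25 to 1.41) and an adjusted p of 0.276. The Lrig1 interaction was 0.31 (-0.21 to 0.83) and that of Ascl2 ILMN_2919900 was -0.34 (-0.81 to 0.14), so the DSS responses of these genes were not shown to differ between genotypes, although each passed in a single genotype.

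Cd44 had 9 probes, 8 of them tested, and its probes differed in their response. With DSS in WT CECs all 8 were higher, by 0.08 to 0.98 with a median of 0.68, and 3 passed. With DSS in Mbd2-/- CECs 7 of 8 were higher, by -0.10 to 0.91 with a median of 0.51, and 2 passed. Of the tested probes, 4 read bases 1018 to 1546 of the transcript and 3 read bases 3353 to 4862, while for ILMN_1228214 no genome position is given. The other probe of the first stretch, ILMN_1246460, was detected on 1 of 18 arrays. That first stretch of 529 bases spreads over 8032 bases of the genome, so it crosses introns, whereas the second stretch of 1510 bases is unbroken. Cd44 is known to be alternatively spliced, and the array does not give the isoforms.

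The start sites of ILMN_2474229 and ILMN_3114585 are 228 bases apart near the end of the transcript, and the readings of these neighbours differed. ILMN_3114585 was higher with DSS in WT CECs by 0.94, where ILMN_2474229 differed by 0.08. In Mbd2-/- CECs ILMN_2474229 rose by 0.91, where ILMN_3114585 differed by 0.53. Without DSS, loss of Mbd2 went with 0.35 on ILMN_3114585 and -0.59 on ILMN_2474229, neither of which passed. Over the 28 pairs of Cd44 probes, Pearson's r of the samples' deviations from their group means had a median of 0.50 and ran from -0.19 to 0.81. Only ILMN_2697830 passed with DSS in both genotypes.

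**Figure D3:**
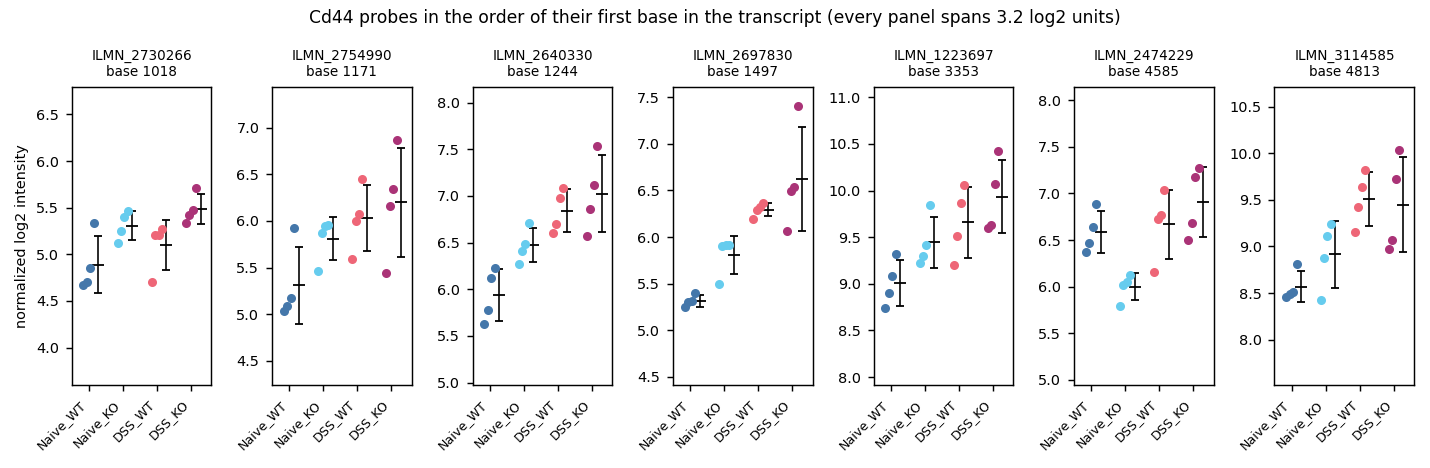
Normalized log2 intensity (y axis) of the 7 tested Cd44 probes with a genome position in the 4 groups (x axis), in the order of their first base in the transcript; points are samples in order of their value and bars are the mean ± SD of 4 samples. DSS_WT samples lie above all Naive_WT samples on ILMN_2640330, ILMN_2697830 and ILMN_3114585, and Naive_KO has the lowest mean (6.00) on ILMN_2474229.

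Most tested leukocyte and myeloid genes rose with DSS in both genotypes, and most fibroblast genes rose in WT CECs alone. Cd44 is also expressed by leukocytes and fibroblasts. Of 9 tested leukocyte genes, 7 rose in WT and 6 in Mbd2-/- CECs, with medians of 1.37 and 1.26, against 5.71% and 4.90% of all tested probes that rose. The summed level of these genes on the linear scale was 1152 to 1509 in Naive_WT, 1002 to 1900 in Naive_KO, 2055 to 4181 in DSS_WT and 2692 to 3220 in DSS_KO. The most intense were Laptm5, with a mean log2 intensity of 9.44, and Cytip, with 9.05. Ptprc, which defines leukocytes, was detected on too few arrays to be tested. Of 9 tested myeloid genes 8 rose in each genotype (medians 1.41 and 1.18), with summed levels of 1371 to 1872 in Naive_WT, 1638 to 3120 in Naive_KO, 2315 to 4792 in DSS_WT and 4000 to 4516 in DSS_KO. Their most intense genes were Cd14 and Lyz2, and Itgam was not tested for lack of detection. Of 12 fibroblast and matrix genes, 10 rose in WT CECs (median 1.08) and 0 passed in Mbd2-/- CECs (median 0.50), and their summed level was 4272 to 8330 in Naive_WT, 4163 to 5626 in Naive_KO, 9188 to 11910 in DSS_WT and 6116 to 7831 in DSS_KO. Of 10 endothelial genes, 3 (Cdh5, Tek and Eng) rose in WT and 0 passed in Mbd2-/- CECs, and of 8 smooth muscle genes none passed in either. Of the 10 epithelial identity genes, 1, Cdh1, fell in WT CECs, by 0.37, and 0 passed in Mbd2-/- CECs. The part of these other cells in the Cd44 values was not tested.

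With DSS, fibroblast and endothelial genes were also lower in Mbd2-/- than in WT CECs, for 5 of 12 and 8 of 10 genes, and 5 of 8 smooth muscle genes were lower too, where 5.63% of all tested probes passed in either direction. Cd44 ILMN_1223697 differed by 0.27 there and did not pass. With DSS, 10.5% of all tested probes passed in WT and 9.42% in Mbd2-/- CECs. Among differentiated cell types, with DSS in WT CECs 0 of 10 colonocyte genes and 0 of 10 enteroendocrine genes passed. There Retnlb rose and Agr2 fell of 8 goblet genes, and Alox5ap rose of 7 tuft genes. In Mbd2-/- CECs the colonocyte genes Aqp8 and Car4 and the enteroendocrine gene Insl5 fell, Alox5ap rose and 0 goblet genes passed.

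Within groups, some of the 10 genes varied together from sample to sample. After each group's mean was removed, the highest Pearson's r over the 16 samples was 0.86 between Lgr5 and Lrig1, followed by 0.79 between Ascl2 and Axin2, 0.78 between Lrig1 and Rnf43 and 0.76 between Lgr5 and Cd44. The lowest was -0.55 between Olfm4 and Ephb2. The arrays differ in how many probes they detect, and that number had an r of 0.66 with Lrig1, 0.64 with Lgr5, 0.557 with Sox9, 0.51 with Rnf43, 0.335 with Axin2, 0.309 with Cd44 and 0.278 with Smoc2, against 0.06 with Ascl2 and Olfm4 and -0.254 with Ephb2. These correlations are descriptions of 16 samples.

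**Figure D4:**
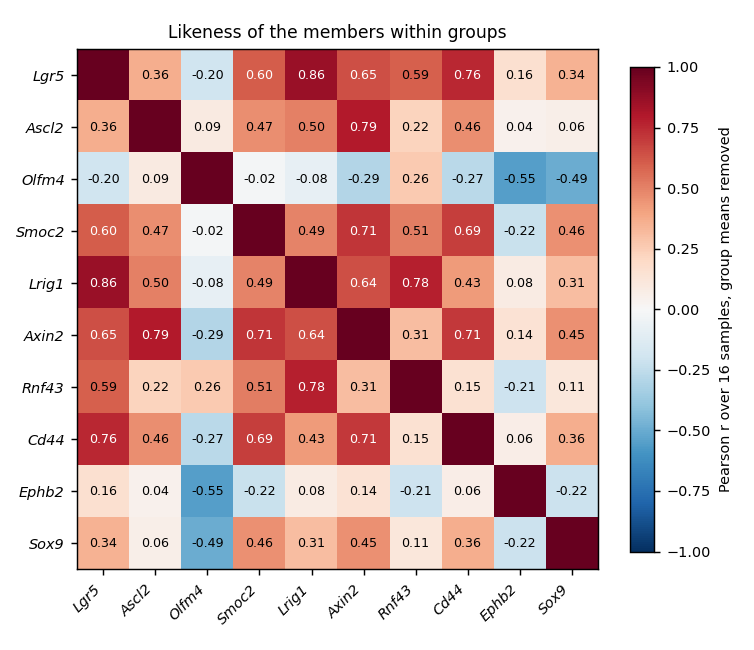
Pearson's r between the 10 genes (rows and columns, each read by its tested probe with the highest mean) over 16 samples after removal of the group means, on a colour scale from -1 to 1. Lgr5, Lrig1, Axin2, Cd44 and Smoc2 have positive values with each other, up to 0.86, and Olfm4 is mostly near 0 or negative, down to -0.55.

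Among all other tested genes, the 5 whose within-group pattern was most like that of Lgr5 were Uba2 (r = 0.93), a subunit of the SUMO-activating enzyme, 1700019D03Rik (0.93), Nap1l1 (0.91), a histone chaperone, Ncapd3 (0.91), a condensin subunit, and Rad54b (0.90), a DNA repair protein. Lrig1 ranked 19 of 15756 genes in this order and Cd44 ranked 162, whereas Ascl2 ranked 2748 and Olfm4 11269. The number of probes detected had an r of 0.53 to 0.69 with these 5 genes.

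Some of the other crypt base and Wnt target genes also moved with DSS. Of all tested probes, 5.71% rose and 4.75% fell in WT CECs, and 4.90% rose and 4.52% fell in Mbd2-/- CECs. Of 20 tested crypt base and stem cell genes outside the 10, 3 rose and 6 fell in WT CECs (median -0.15), and 1 rose and 5 fell in Mbd2-/- CECs (median -0.14). Of 12 further Wnt targets, 3 rose and 0 fell in WT (median 0.25), and 4 rose and 1 fell in Mbd2-/- CECs (median 0.05). Ccnd1 (0.61 and 0.62) and Apcdd1 (0.82 and 0.56) rose in both genotypes and were named after their values were seen. The genes described next met the stricter call in at least 1 comparison, except Kit.

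Sp5, a transcription factor switched on by Wnt signalling, read 5.32, 5.35, 5.60 and 6.34 in Naive_WT and 7.26, 7.44, 7.47 and 7.62 in DSS_WT, from the lowest to the highest sample. It rose by 1.80 ± 0.25 (adjusted p = 0.000587) with no overlap, and by 0.86 without background correction. In Mbd2-/- CECs it read 5.34 to 6.17 without DSS and 6.35 to 7.46 with it, and it rose by 1.11 ± 0.25 (adjusted p = 0.0122). The interaction for Sp5 was -0.69 with an adjusted p of 0.525. Mmp7, a matrix metalloproteinase and Wnt target, read 4.67, 5.08, 5.14 and 5.45 in DSS_WT and 5.70, 6.40, 7.20 and 7.32 in DSS_KO. It was the 1 gene of these Wnt and crypt lists that met the stricter call between genotypes, at 1.57 ± 0.29 (adjusted p = 0.00541). Without background correction that difference was 0.63. Mmp7 also rose with DSS in Mbd2-/- CECs by 1.66 ± 0.29 (adjusted p = 0.00227), or by 0.65 without background correction. It was detected on 0 of 4 Naive_WT, 2 of 4 Naive_KO, 4 of 5 DSS_WT and 5 of 5 DSS_KO arrays, so the naive values lie near background. Its interaction of 1.06 had an adjusted p of 0.359.

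Igfbp4, a secreted protein that binds insulin-like growth factors, rose by 1.64 ± 0.24 in WT (adjusted p = 0.000693) and by 0.80 ± 0.24 in Mbd2-/- CECs (adjusted p = 0.0458) on the probe with the higher mean. The other Igfbp4 probe, ILMN_1258988, rose by 1.33 in WT (adjusted p = 0.00211) and by 1.197 in Mbd2-/- CECs (adjusted p = 0.00444), and both met the stricter call. Sfrp1, a secreted protein that binds Wnt ligands, rose by 1.56 ± 0.26 in WT (adjusted p = 0.00174) and by 1.28 ± 0.26 in Mbd2-/- CECs (adjusted p = 0.00710) on the probe with the higher mean. On the other Sfrp1 probe the differences were 0.20 and 0.76, and only the second passed (adjusted p = 0.0194). Stromal cells are a known source of Sfrp1 and Igfbp4. With DSS, 10 of 12 fibroblast genes rose in WT CECs (median 1.08). In Mbd2-/- CECs 11 of 12 were higher with DSS (median 0.50) and 0 passed. Between genotypes with DSS, the fibroblast genes had a median of -0.82. There Sfrp1 differed by 0.13 and Igfbp4 by -0.45 on the probes with the higher mean. The other Sfrp1 probe differed by 0.51 and the other Igfbp4 probe by -0.08, and no Sfrp1 or Igfbp4 probe passed. The part of stromal cells in the Sfrp1 and Igfbp4 values was not tested.

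Reg4, a secreted lectin of deep crypt secretory cells, read 8.80, 9.26, 9.33 and 10.08 in Naive_KO and 6.61, 6.95, 8.07 and 8.30 in DSS_KO. It fell by 1.88 on the log2 scale there (SE 0.39, adjusted p = 0.00736), and in WT CECs the difference was -1.01 (adjusted p = 0.110). Kit, which marks the same secretory cells and was singled out after its values were seen, fell in both genotypes, by 0.67 (adjusted p = 0.00568) and by 0.82 (adjusted p = 0.00187). Fzd9, a frizzled receptor, fell by 1.30 (SE 0.24, adjusted p = 0.00347) in Mbd2-/- CECs from 6.02 to 6.90 without DSS to 4.71 to 5.38 with it, and differed by -0.72 (adjusted p = 0.0684) in WT CECs. Fzd9 was detected on all 8 naive arrays but on 3 of 5 DSS_WT and 2 of 5 DSS_KO arrays, so its DSS values lie near background, and without background correction it fell by 0.46 in Mbd2-/- CECs.

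**Figure D5:**
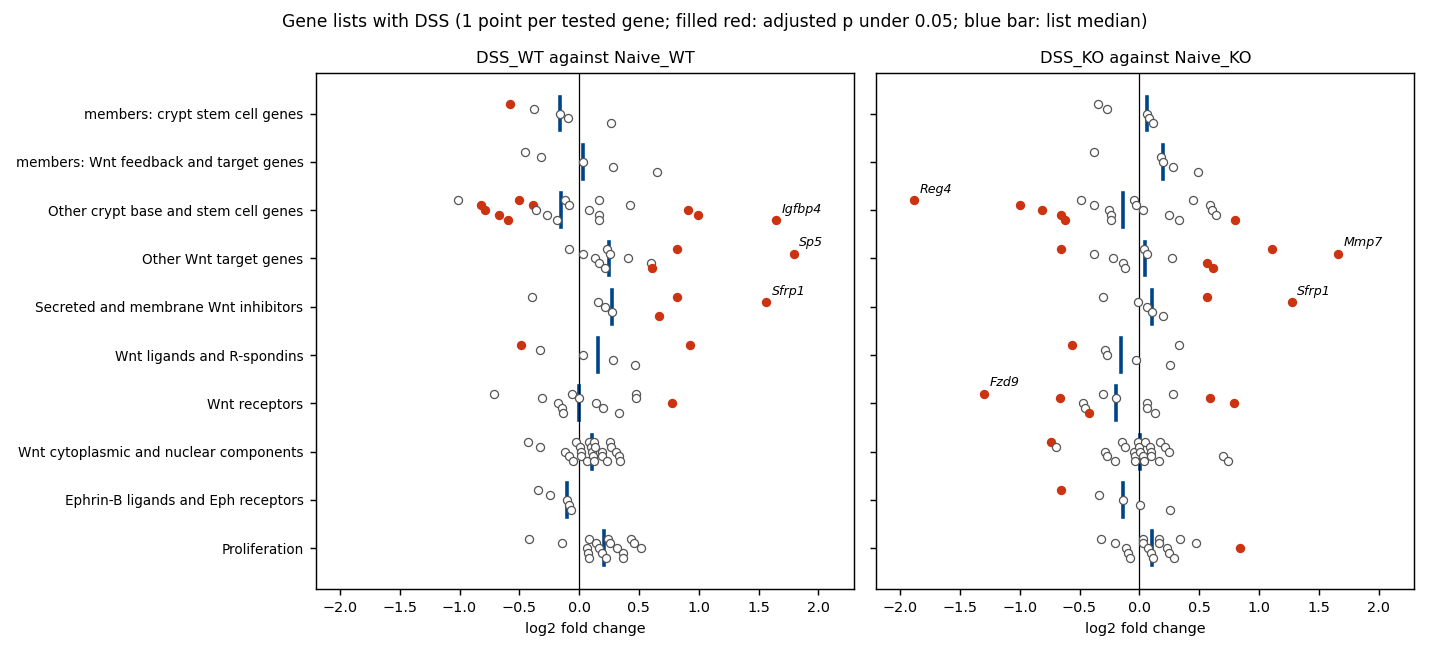
Log2 fold change with DSS (x axis) of every tested gene of 10 lists (rows) in WT and Mbd2-/- CECs (panels), 1 point per gene; filled red points had an adjusted p under 0.05, named genes met the stricter call and blue bars are the medians. Sp5, Igfbp4 and Sfrp1 stand out to the right in WT CECs, and Mmp7 and Sfrp1 to the right with Reg4 and Fzd9 to the left in Mbd2-/- CECs, while the proliferation list centres at 0.21 and 0.10.

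Of 25 tested cytoplasmic and nuclear components, 0 passed with DSS in WT CECs and 1, the corepressor Tle2, fell in Mbd2-/- CECs, by 0.74. Of 13 tested receptors, 1 rose in WT, and 2 rose and 3 fell in Mbd2-/- CECs. The shares of all tested probes that passed were 10.5% in WT and 9.42% in Mbd2-/- CECs. The receptor that rose in WT CECs, Fzd8, was named after its values were seen, and it rose by 0.78 in WT (adjusted p = 0.0205) and fell by 0.66 in Mbd2-/- CECs (adjusted p = 0.0440), with an interaction of -1.44 and an adjusted p of 0.170. In Mbd2-/- CECs Fzd3 (0.79) and Fzd10 (0.59) rose, and Fzd6 (-0.42) fell with Fzd8 and Fzd9. Only 6 of 25 Wnt ligands, R-spondins and secretion factors were detected well enough to be tested, and of these 1, Wnt5a, rose in WT CECs by 0.93 (adjusted p = 0.0373), 1, Porcn, fell there by 0.48, and 1, Wls, fell in Mbd2-/- CECs by 0.56. Of 7 tested inhibitors, 3 rose in WT (Sfrp1, Dkk3 and Apcdd1) and 2 in Mbd2-/- CECs (Sfrp1 and Apcdd1). Fibroblast genes had medians of 1.08 in WT and 0.50 in Mbd2-/- CECs. The part of stromal cells in the ligand and inhibitor values was not tested. Of 18 proliferation genes, 0 passed in WT and 1, Ube2c, rose in Mbd2-/- CECs, and of 5 ephrin-B ligands and Eph receptors 0 passed in WT and 1, Ephb3, fell in Mbd2-/- CECs by 0.66.

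Between genotypes, 5.63% of all tested probes passed with DSS and 5.19% without it. With DSS, Wls was lower in Mbd2-/- CECs by 0.52 as 1 of 6 ligands and secretion factors. Of 13 receptors Fzd3 was higher (0.73) and Fzd8 (-0.81) and Ror2 (-0.58) were lower. Dkk3 was lower (-0.81) as 1 of 7 inhibitors and Mmp7 was higher as 1 of 12 targets. Of 20 crypt base genes Cd24a was higher (0.68) and Soat1 lower (-0.59). Fibroblast genes had a median of -0.82 in this comparison, and the part of stromal cells in these values was not tested. None of 25 components and none of 18 proliferation genes passed. Without DSS, Porcn was lower (-0.44), and Ephb3, which is on the target, the crypt base and the ephrin lists, was higher by 0.79 (adjusted p = 0.0157), while its ligand Efnb2 was lower (-0.75). No receptor, component, inhibitor or proliferation gene passed there.

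Promoter windows from RefSeq (GRCm38.p6, 300 bases around each gene's start) were matched for 7 of the 10 genes, with 8 windows in all since Rnf43 has a pair. None of the 8 held NNCAAAG with A or T at each N, the letters of the Tcf and Lef motif, on either strand, and 16.9% of all 32851 windows held at least 1 match. No match says only that these letters are not in these windows.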

How the data were processed

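Per the file headers, the scanner software wrote mean bead intensity per probe with no normalization or background subtraction, and the deposited table pairs each intensity with a detection p-value, computed within each array from its negative controls. The submitters' processing notes name lumi and limma, without versions. The authors' comparison values were not used. The standard errors and bead numbers of the table served only to describe the arrays.

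The function neqc (limma 3.58.1, R 4.3.3, offset 16) corrected the intensities of 18 arrays for background from 936 negative controls, applied quantile normalization and took log2. Array 4R was averaged with 4 and 5R with 5, because the SD of the log2 difference was 0.194 and 0.236 within these pairs, against at least 0.334 and 0.287 for the other pairs of their groups. Testing was limited to probes detected (p-value under 0.05) on 4 or more arrays, which kept 21938 probes for 15757 genes. A linear model in limma gave each group its mean over 16 samples (12 residual and 4.71 prior degrees of freedom), with two-sided moderated tests and Benjamini-Hochberg adjustment over all tested probes within a comparison. An adjusted p under 0.05 is written as passed, rose or fell. The study's thresholds, an adjusted p under 0.01 and an absolute log2 fold change of 1 or more, are the stricter call. The number of arrays and beads limits the precision. The fit was tested on simulated data.

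The members, the gene lists and the tests were chosen with earlier results of these data known. All probes of the 10 genes are named; of the other Wnt and crypt lists, the genes that met the stricter call in a comparison; of the cell type lists, at most the 2 most intense genes; and the 5 genes most like Lgr5. For a gene with several tested probes, the probe with the highest mean stands for it in counts over lists. Genes named beyond this rule, where a count of 5 or fewer left them, were chosen after their values were seen. The cell type markers named with their detection, such as Epcam and Ptprc, also lie outside this rule. Symbols were updated by Entrez identifier through a RefSeq table (GRCm38.p6), which matched 29586 of 45281 probes. Samples could not be paired, since the groups share no replicate numbers.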

Additional observations from a re-analysis of the deposited data

Results flagged for a closer look

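In 8 of 88 groups of 4 samples, a sample stood far from the other 3, its gap to them taking a share of the group's whole range above Dixon's critical value at the 95% level. Chance alone sets about 1 in 20 such groups apart. Naive_KO replicate 15 was low for Ascl2 ILMN_2750349 (6.31 against 6.77 to 6.83, gap share 0.881). Naive_KO replicate 14 was low for Cd44 ILMN_2697830 (5.50 against 5.91 to 5.92, 0.975) and high for Sox9 ILMN_3007428 (9.84 against 9.41 to 9.45, 0.889). Naive_WT replicate 11 was high for Cd44 ILMN_3114585 (8.81 against 8.46 to 8.51, 0.853) and Cd44 ILMN_2754990 (5.93 against 5.04 to 5.18, 0.843). DSS_WT replicate 1 was low for Cd44 ILMN_2730266 (4.70 against 5.21 to 5.27, 0.891). Olfm4 was high in Naive_KO replicate 16 (5.58 against 4.56 to 4.72, 0.837) and in DSS_WT replicate 3 (5.08 against 4.44 to 4.53, 0.855), where most other samples of those groups were not detected. Naive_KO replicate 14 also decided the Cd44 ILMN_2697830 call with DSS in Mbd2-/- CECs, as given in the report.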

How the results depend on the processing

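In the 4 comparisons, 54 log2 fold changes were followed through the other settings: those of each member's most intense probe, of the further member probes that passed, and of the other Wnt and crypt genes where they met the stricter call. Olfm4 was not tested under the stricter detection filter. Under the other settings 402 of 428 values kept direction and side of the threshold, 6 lost the call, 9 gained it and 11 turned sign; with 1 replicate left out these numbers were 822 of 864, 15, 4 and 23. With median scaling, the sign turned for Lrig1 between genotypes with DSS (-0.0684), for Lgr5 (0.0147), Smoc2 (0.0214) and Axin2 (0.0773) with DSS in WT CECs, and for Lrig1 with DSS in Mbd2-/- CECs (0.12). The medians of all tested probes in these comparisons were -0.08, 0.24 and 0.23, and relative to them none of these 5 signs turned (0.0097, -0.23, -0.22, -0.16 and -0.11). The counts then were 6 probes, 2 genes whose most intense probe passed and 3 probes with the stricter call in WT CECs, and 7 probes, 3 genes and 2 stricter calls in Mbd2-/- CECs, where 24% and 20.8% of all tested probes passed. With no filter, and in the fit to 2 groups, 0 genes passed by their most intense probe in WT CECs. With 18 arrays as replicates, 1 probe passed between genotypes with DSS (12.8% of all tested probes), 6 probes, 3 genes and 1 stricter call were found with DSS in WT CECs, and Lgr5 (-0.103) and Lrig1 (-0.0362) turned sign between genotypes with DSS. Without the repeat arrays there was 1 stricter call in WT CECs. With array weights there were 1 stricter call in WT CECs and 5 probes, 1 gene and 1 stricter call in Mbd2-/- CECs (15.9% of all tested probes), and the sign turned for Ascl2 ILMN_2750349 between genotypes without DSS (0.0352), Lgr5 (0.0204) and Smoc2 (0.0333) with DSS in WT CECs and Olfm4 with DSS in Mbd2-/- CECs (-0.0723). Leaving out 1 replicate, values ran between genotypes with DSS from -0.20 to 0.12 for Ascl2 ILMN_2750349, from -0.15 to 0.30 for Lgr5 and from -0.048 to 0.163 for Lrig1, and without DSS from -0.135 to 0.0508 for that Ascl2 probe and from -0.335 to 0.0358 for Lgr5. With DSS in WT CECs they ran from -0.334 to 0.0228 for Lgr5, from -0.24 to 0.10 for Smoc2 and from -0.0351 to 0.0775 for Sox9 ILMN_2778151, and in Mbd2-/- CECs from -0.14 to 0.31 for Lgr5, from -0.0908 to 0.312 for Olfm4 and from -0.0574 to 0.143 for Smoc2. The counts ran from 3 to 5 probes, 0 to 2 genes and 0 to 1 stricter calls with DSS in WT CECs, from 1 to 4 probes and 0 to 2 stricter calls in Mbd2-/- CECs, and from 0 to 1 probes between genotypes with and without DSS. The causes were not tested. Olfm4 and Cd44 ILMN_1228214, each detected on 5 of 18 arrays, are the tested probes of these genes closest to background. No paired analysis was possible because the groups share no replicate numbers, and the BeadChip as a block was not run because the headers used do not give it.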
